A study of Mus musculus with 18 samples.

Results

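Purine nucleotide genes were examined in mouse embryonic stem (ES) cells of a WT line and of the iEZR_CA line, starting from Hprt, whose reads were present in WT and nearly absent in iEZR_CA libraries. The set holds 10 genes of the 53801 in the count table, namely the salvage enzymes Hprt and Aprt, the synthetases Prps1 and Prps2, and the 6 de novo genes Ppat, Gart, Pfas, Paics, Adsl and Atic. All 10 were among the 18469 genes that passed a filter on low counts. The set was chosen by the Hprt counts of the WT and iEZR_CA libraries, so the Hprt difference between the lines is described without a test. The other 9 were listed for their function, with earlier results of these data known, and were tested among all genes.

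Polyadenylated RNA was sequenced from 18 libraries in 6 groups of 3. WT cells, labelled E14 wt, were sampled in 2i+LIF medium at 0 h of exit from naive pluripotency (WT ESC) and after 24 h (WT T24) and 48 h (WT T48) in N2B27 medium. The iEZR_CA cells were sampled at the same times and had received doxycycline about 16 h before exit, which induces a constitutively active form of ezrin, a protein that ties the cell membrane to the actin cortex. All cells grew on gelatin. The iEZR_CA line was made in E14 cells with a PiggyBac transposon system, and no WT cells with doxycycline and no iEZR_CA cells without it were analysed here. The transgene, doxycycline and the history of the line therefore cannot be told apart in any difference between the lines. The labels name wells, and p-values measure the spread between the 3 libraries of a group.

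Cells obtain purine nucleotides by salvage of free bases and by de novo synthesis. Both routes use PRPP, an activated ribose phosphate made by the Prps1 and Prps2 enzymes. Hprt joins PRPP to hypoxanthine or guanine, and Aprt joins it to adenine. The de novo route builds the purine ring on PRPP through IMP, the precursor of AMP and GMP, and its output is known to be held back by purine nucleotides acting on the PRPP synthetases and on Ppat. ES cells divide rapidly and need much nucleotide synthesis. Loss of Hprt allows growth in 6-thioguanine and prevents growth in HAT medium, which is why the gene is a classical selection marker in ES cell work.

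Totals of 10940752 to 33276622 reads lay on genes in the 18 libraries. Ezr reads were at 7711 to 11763 normalized counts on average in the WT groups and at 16215 to 24819 in the iEZR_CA groups. The ES cell marker Pou5f1 had group means of 10869 to 18541. Markers of the naive state stood higher in iEZR_CA than in WT during exit: Nanog was at 23752, 2393 and 411 in WT ESC, T24 and T48 and at 20971, 8254 and 1106 in iEZR_CA, and Zfp42 at 18260, 12424 and 820 against 17567, 17704 and 5046. Summed markers of primitive endoderm stood at 223 to 255 in the WT ESC libraries and 731 to 790 in the iEZR_CA ESC libraries, but the members went different ways. Dab2 was at 45.2 in WT ESC and 631 in iEZR_CA ESC and Gata6 at 32.4 and 61.5, while Gata4 was at 97.5 and 17.4, Sox17 at 25.3 and 19.1, Sox7 at 7.97 and 1.30, and Pdgfra at 31.3 and 30.2. The primitive endoderm sum was 128 to 162 in WT and 379 to 426 in iEZR_CA at T24, but 287 to 318 and 206 to 240 at T48. At T24 Dab2 averaged 33.5 in WT and 303 in iEZR_CA, and Sox7 1.81 and 3.62. Gata6 stood at 40.7 and 40.3, Gata4 at 19.8 and 15.9, Sox17 at 20.9 and 12.5, and Pdgfra at 30.9 and 24.5. Trophoblast markers summed to 2898 to 2967 in WT ESC and 1976 to 2101 in iEZR_CA ESC. Tfap2c averaged 2855 and 1758 there, while Gata3 averaged 28.1 and 138 and Krt8 40.5 and 127. Elf5 averaged 2.11 and 7.16, from at most 9 reads in a library. Cdx2 averaged 17.4 and 19.3, and its libraries overlapped. The trophoblast sum was 122 to 150 in WT T24 and 574 to 637 in iEZR_CA T24, and 279 to 304 and 440 to 486 at T48. At T48 Gata3 (16.2 in WT and 189 in iEZR_CA) and Tfap2c (115 and 185) had higher means in iEZR_CA. Cdx2 (17.0 and 8.11), Krt8 (142 and 86.8) and Elf5 (1.41 and 0.400) had lower means there. Fibroblast markers summed to 353 to 396 in WT T48 against 48.0 to 71.6 in iEZR_CA T48. Col1a2 averaged 200 and 10.6 in these groups, Thy1 128 and 25.5, and Col1a1 50.6 and 16.4. The other fibroblast genes were near the floor in every group, with means of 0 to 0.369 for Postn and 1.28 to 4.37 for Col3a1. In ESC the fibroblast sums overlapped, at 34.1 to 52.8 in WT and 41.0 to 54.6 in iEZR_CA. They overlapped at T24 too, at 42.5 to 63.1 and 44.5 to 56.3. The X-inactivation RNA Xist averaged 718 in WT T48 and 30.2 to 65.0 in the other groups. The part of these differences in the results was not tested. In bulk RNA, fewer cells that express a gene and less RNA per cell cannot be told apart.

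The upstream sequences of 6 of the 10 genes are shown as a description, and no link between sequence and expression was tested. They come from the reference genome, and whether either line carries them was not examined. Hprt is the gene with nearly no reads in 1 line, and Ppat and Paics lie head to head. Relative to total reads, Prps1 and Prps2 moved in opposite directions when T24 and T48 were set against ESC. From T24 to T48 they moved the same way, down in WT (-0.19 and -0.08) and up in iEZR_CA (0.16 and 0.53). Atic is shown beside Paics because both carry the letters CACGTG, the E-box bound by Myc family factors. Each sequence gives the 250 bases before the RefSeq start, 5′ to 3′ on the gene's strand, from GRCm38.p6. Capitals mark CACGTG and GGGCGG, the latter also as CCGCCC on the other strand.
Hprt (chrX:52987828-52988077, plus strand): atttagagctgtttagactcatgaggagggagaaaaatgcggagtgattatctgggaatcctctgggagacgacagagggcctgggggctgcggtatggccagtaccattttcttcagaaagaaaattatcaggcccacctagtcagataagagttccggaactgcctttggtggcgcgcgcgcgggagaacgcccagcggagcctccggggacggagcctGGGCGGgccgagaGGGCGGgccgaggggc
Prps1 (chrX:140456353-140456602, plus strand): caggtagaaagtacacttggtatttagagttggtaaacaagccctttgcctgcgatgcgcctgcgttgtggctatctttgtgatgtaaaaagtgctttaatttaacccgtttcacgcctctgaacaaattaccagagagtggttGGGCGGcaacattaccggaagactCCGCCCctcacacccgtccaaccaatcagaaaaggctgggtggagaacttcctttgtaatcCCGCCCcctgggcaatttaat
Prps2 (chrX:167382750-167382999, minus strand): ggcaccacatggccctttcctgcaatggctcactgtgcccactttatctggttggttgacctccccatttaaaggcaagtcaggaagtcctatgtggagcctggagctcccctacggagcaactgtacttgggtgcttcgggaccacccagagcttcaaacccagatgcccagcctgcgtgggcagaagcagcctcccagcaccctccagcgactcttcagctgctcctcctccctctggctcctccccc
Ppat (chr5:76951579-76951828, minus strand): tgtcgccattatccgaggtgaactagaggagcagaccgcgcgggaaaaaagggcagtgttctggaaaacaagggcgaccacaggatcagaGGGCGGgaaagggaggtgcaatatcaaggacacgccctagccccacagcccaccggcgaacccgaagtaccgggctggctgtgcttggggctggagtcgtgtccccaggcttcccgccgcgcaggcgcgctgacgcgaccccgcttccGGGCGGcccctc
Paics (chr5:76951052-76951301, plus strand): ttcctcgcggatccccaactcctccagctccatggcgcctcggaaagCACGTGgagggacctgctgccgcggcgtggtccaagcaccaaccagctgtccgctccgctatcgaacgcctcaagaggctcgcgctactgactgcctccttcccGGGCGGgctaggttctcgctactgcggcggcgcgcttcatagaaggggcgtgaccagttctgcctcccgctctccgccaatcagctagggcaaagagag
Atic (chr1:71556906-71557155, plus strand): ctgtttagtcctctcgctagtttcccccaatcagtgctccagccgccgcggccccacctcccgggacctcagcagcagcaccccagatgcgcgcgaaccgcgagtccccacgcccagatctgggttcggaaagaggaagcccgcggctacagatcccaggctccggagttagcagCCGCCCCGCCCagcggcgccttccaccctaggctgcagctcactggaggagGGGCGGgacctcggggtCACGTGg

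CACGTG was found upstream of 2 of the 9 genes with a RefSeq promoter entry, Paics and Atic, against 6.02% of 32851 mouse promoters. It lay 203 bases before the start of Paics and 7 bases before that of Atic. The bases searched for Paics lie within the Ppat gene, so its CACGTG is also inside Ppat. Ppat was counted without CACGTG because only the bases before its start, which lie within the Paics gene, were searched. GGGCGG or its complement, the core letters of a GC box, was found upstream of 8 of the 9 genes, all but Prps2, against 32.7% of all promoters. GCGCATGC, the letters of an NRF1 site, was found upstream of none of the 9 and of 2.26% of all promoters. Pfas was not matched.

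Hprt, at chrX:52988137-53021659 on GRCm38, was read at 2418, 2390 and 2559 normalized counts in the WT ESC libraries. A normalized count is a read count divided by the size factor of its library. WT T24 libraries had 2932, 3105 and 2790, and WT T48 libraries 3333, 3046 and 2876. In iEZR_CA the libraries had 9.97, 5.86 and 8.40 in ESC, 16.2, 12.9 and 18.8 at T24, and 11.7, 10.8 and 11.99 at T48. Every WT library was therefore far above every iEZR_CA library.

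**Figure D1:**
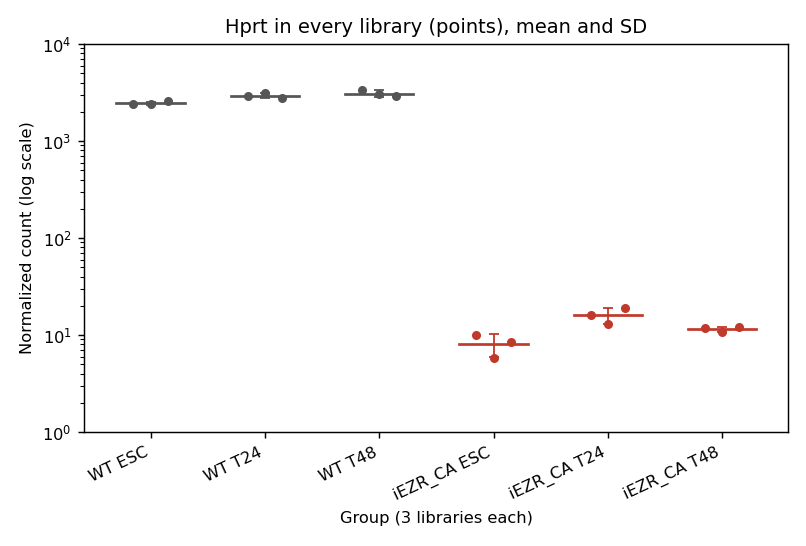
Hprt normalized counts on a log axis in each of the 18 libraries (points), with the mean (line) and SD (bar) of each group of 3. The WT libraries lie between 2390 and 3333 and the iEZR_CA libraries between 5.86 and 18.8.

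Relative to WT, the iEZR_CA mean was 0.329% in ESC, 0.542% at T24 and 0.372% at T48. The WT mean was 304-fold higher in ESC (95% Poisson interval 201 to 485, from 22 reads over the 3 iEZR_CA libraries). It was 184-fold higher at T24 (139 to 249, from 49 reads) and 268-fold higher at T48 (196 to 379, from 38 reads). These intervals cover counting error only. Raw Hprt counts were 1593 to 4552 in the WT libraries and 6 to 20 in the iEZR_CA libraries, so reads in iEZR_CA were few but not absent.

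Hprt was chosen by these same counts, so its place under the next rule was expected and is a description. Of 11520 genes with at least 50 normalized counts in every WT group, Hprt was the 1 gene below 1% of WT at all 3 stages. In the opposite direction 3 of 11671 genes met the same rule, Ftl2-ps, Mid1-ps1 and Gm5739. The study gives its WT cells as E14TG2a, a line known for its selection for loss of Hprt, whereas the libraries labelled E14 wt held Hprt reads at the level of other purine genes and those labelled iEZR_CA nearly none. The labels also call the control the parental line of iEZR_CA. Which line has which origin, and whether the WT cells are the parent of iEZR_CA, was not settled here, and this bears on every difference between the lines.

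Genes beside Hprt did not share its level of difference. Of 33 genes of the table within 500 kb, 13 were tested, Hprt included. Phf6, a chromatin-associated protein gene 75.9 kb upstream, was lower in iEZR_CA by a log2 difference of -0.67 ± 0.05 (SE) in ESC, -0.37 ± 0.03 at T24 and -0.36 ± 0.04 at T48 (adjusted p of 4.3e-19, 8.5e-15 and 1.5e-12, edgeR). Fam122b, with its start 282 kb downstream, was higher by 0.84 ± 0.04, 0.14 ± 0.04 and 1.22 ± 0.04. Ccdc160 was higher in ESC (0.63 ± 0.07) and T24 (0.20 ± 0.07) and lower at T48 (-0.48 ± 0.07). Mospd1 was higher at T24 by 0.46 ± 0.10 and passed at no other stage.

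The pseudogene Rps2-ps13 was higher in ESC by 0.29 ± 0.09 and did not pass at T24 or T48. The pseudogenes Gm14586 and Gm14584 passed the test at no stage, with differences of 0.01, 0.05 and 0.00 for Gm14586 and -0.16, 0.02 and -0.25 for Gm14584. The remaining tested neighbours, Mir363, Mir92-2, Kis2, C430049B03Rik and Plac1, had mean normalized counts of 4.36 to 18.9, and their differences ran from -2.52 to 0.03. Of these, Mir363 (-2.27 and -1.48) and Mir92-2 (-2.51 and -1.28) passed as lower in iEZR_CA at T24 and T48, and Kis2 (-2.52) and Plac1 (-2.29) at T48. On both sides of Hprt the nearest well-read genes thus differed by no more than 1.22 log2 units, against -8.28 ± 0.32 in ESC, -7.54 ± 0.21 at T24 and -8.06 ± 0.24 at T48 for Hprt itself.

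**Figure D2:**
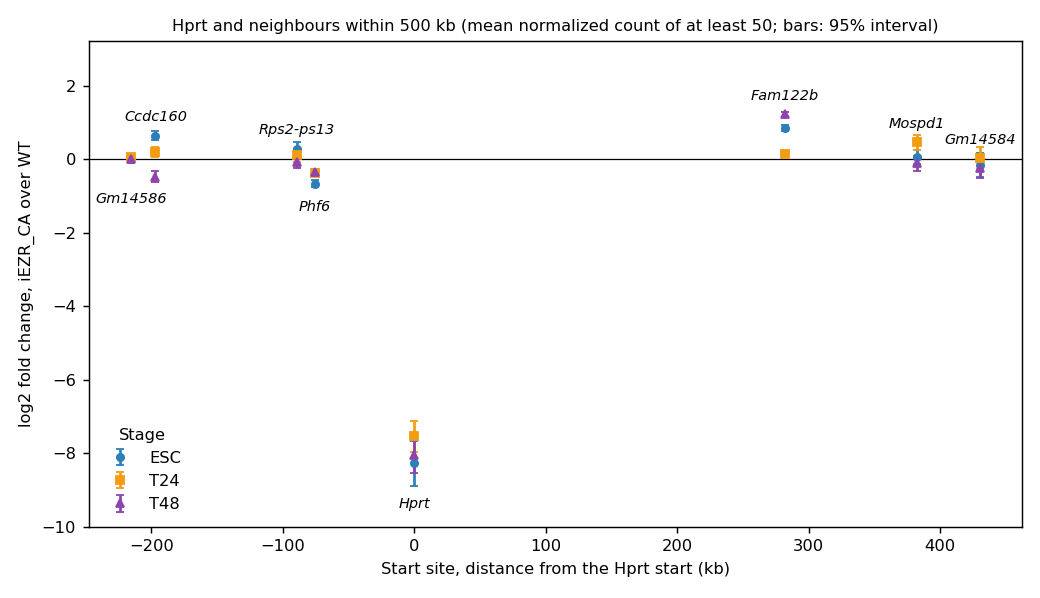
Log2 fold change of iEZR_CA over WT for Hprt and the 7 tested neighbours with a mean normalized count of at least 50, against the distance of their start from the Hprt start in kb. Points are the 3 stages and bars 95% intervals. Hprt lies near -8 and its neighbours between -0.67 and 1.22.

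Per kilobase of exon, Paics was the most abundant of the 10 genes in every group, at 4570 ± 83.1 normalized counts per kb in WT ESC (SD, n = 3) and 4867 ± 52.1 in iEZR_CA ESC. In WT ESC it was followed by Hprt (1905 ± 70.1) and Prps1 (1890 ± 15.9), which overlapped, then by Gart (1616 ± 41.8) and Aprt (1572 ± 76.0), which also overlapped. Ppat stood at 1350 ± 48.8, Pfas at 760 ± 25.9 and Atic at 718 ± 11.7. Adsl (579 ± 15.1) and Prps2 (553 ± 8.27) were lowest. In iEZR_CA ESC Hprt stood last at 6.26 ± 1.61 per kb, while the other 9 ran from Prps2 (409 ± 15.3) to Paics.

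**Figure D3:**
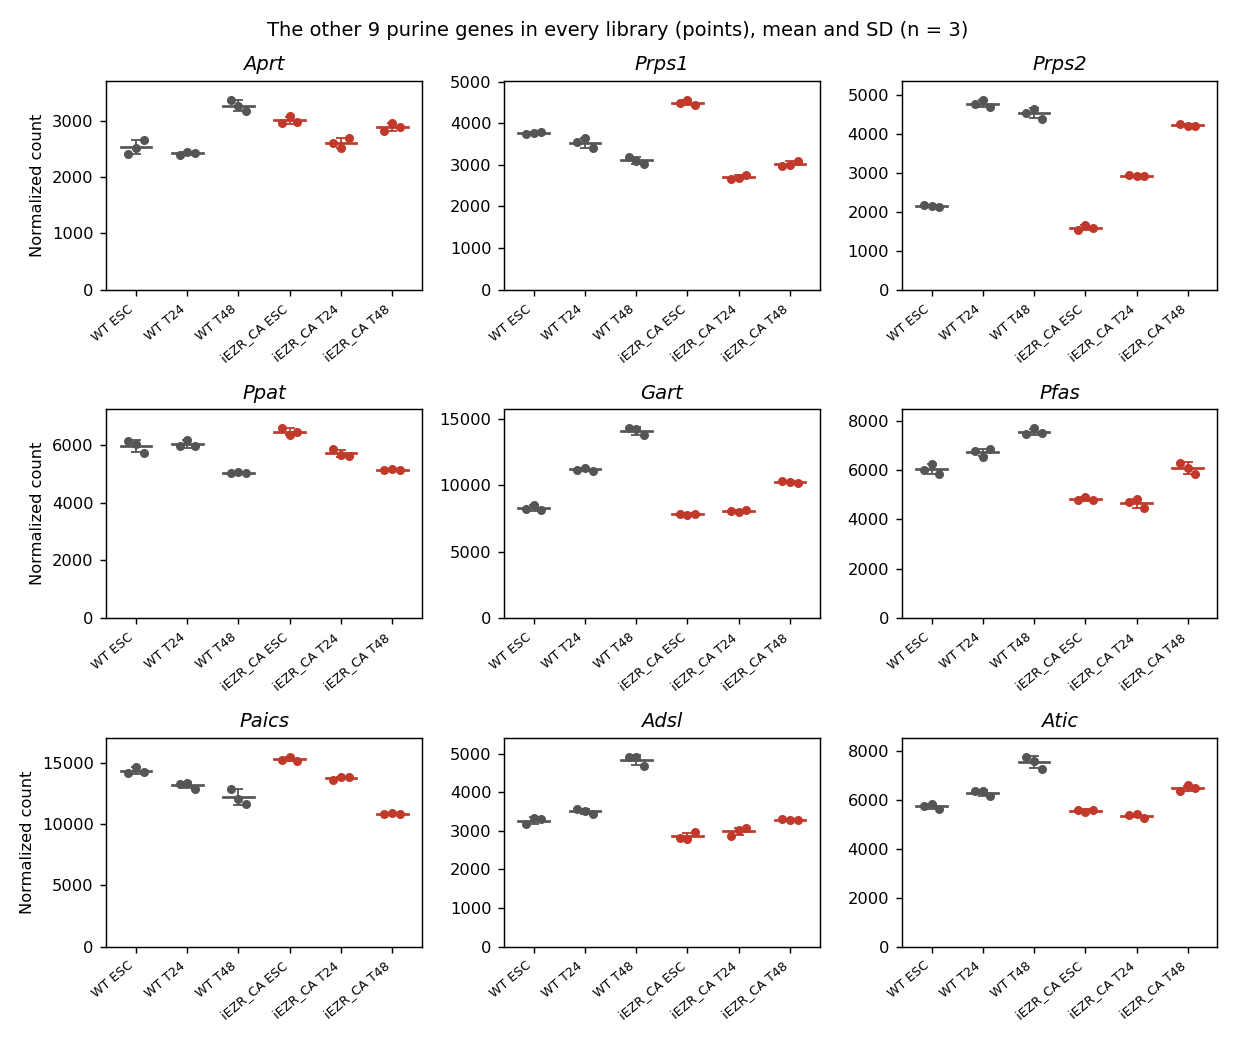
Normalized counts of the other 9 genes in each library (points), with group mean (line) and SD (bar, n = 3), on linear axes from 0. Gart, Pfas, Adsl and Atic rise with exit in WT from means of 8312, 6030, 3263 and 5730 to 14122, 7545, 4837 and 7533, and reach lower levels in iEZR_CA.

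Compared with WT, the other purine genes differed in iEZR_CA by far less than Hprt, and in both directions in ESC. In the naive state 8 of the 9 passed the test, 4 higher and 4 lower, where 54.5% of all 18469 genes passed, 26.4% higher and 28.1% lower. None of the 9 passed with a fold above 1.5, by edgeR with unadjusted p or by DESeq2 either, where 21.0% of all genes did so by edgeR. The median log2 difference of the 9 was -0.05, against -0.01 for all genes. At T24 all 9 passed, 2 higher and 7 lower, against 60.9% of all genes (30.8% higher and 30.1% lower), and their median was -0.23 against 0.00. At T48, 7 passed and all 7 were lower, against 61.1% of all genes (31.0% higher and 30.1% lower), and the median was -0.17 against 0.00. No gene of the 9 was called higher at T48 by edgeR, with or without adjustment, or by DESeq2, and none passed 1.5-fold there by any of these, where 27.4% of all genes did by edgeR.

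When libraries were scaled to the added spike-in RNA in place of total reads, the standard errors grew and fewer differences passed. Prps2 alone passed in ESC, where 5506 of all 18469 genes did. Prps1, Prps2, Gart and Pfas passed at T24, where 7129 of all genes did. Gart and Adsl passed at T48, where 7229 of all genes did. Signs of the passing differences were kept for each of the 9 genes in all 3 line comparisons, as the median of all genes moved only to 0.04, 0.07 and 0.04.

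**Figure D4:**
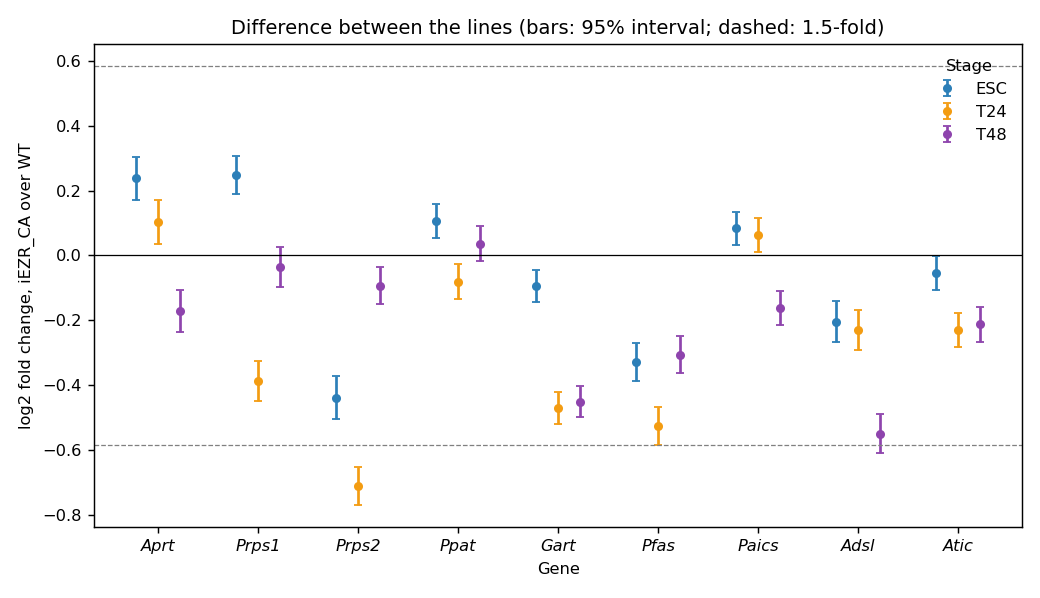
Log2 fold change of iEZR_CA over WT for the 9 genes at ESC, T24 and T48, with 95% intervals; dashed lines mark a fold of 1.5. Gart, Pfas, Adsl, Atic and Prps2 lie below 0 at all 3 stages (Atic in ESC at -0.05, which did not pass), and only Prps2 at T24 (-0.71) passes the dashed line.

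Aprt, the adenine salvage enzyme at chr8:122574635-122576909, did not follow Hprt. Its libraries held 2423, 2527 and 2668 normalized counts in WT ESC and 2971, 3086 and 2981 in iEZR_CA ESC. Every iEZR_CA ESC library was above every WT ESC library, a log2 difference of 0.24 ± 0.03 (SE, adjusted p = 9.2e-09). At T24 the WT libraries had 2405, 2455 and 2426 and the iEZR_CA libraries 2611, 2514 and 2698, higher by 0.10 ± 0.03 (adjusted p = 0.0080).

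At T48 the order was turned round. WT libraries held 3377, 3264 and 3186 Aprt counts and iEZR_CA libraries 2829, 2974 and 2893, a difference of -0.17 ± 0.03 (adjusted p = 9.2e-06). Tested genes on chromosome 8 as a whole were shifted upward in iEZR_CA, with medians of 0.18, 0.21 and 0.18 at the 3 stages. Relative to these medians Aprt stood at 0.06 in ESC, -0.11 at T24 and -0.35 at T48, so its sign at T24 depended on the reference. Without iEZR_CA T24 replicate 3 its T24 difference was 0.08 and no longer passed.

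The PRPP synthetases went different ways. Prps2, at chrX:167346322-167382749, was lower in iEZR_CA at every stage. Its libraries held 2177, 2139 and 2113 normalized counts in WT ESC and 1525, 1643 and 1588 in iEZR_CA ESC, a log2 difference of -0.44 ± 0.03 (adjusted p = 2.5e-18). At T24 WT libraries had 4759, 4860 and 4683 and iEZR_CA libraries 2930, 2905 and 2904, a difference of -0.71 ± 0.03 (adjusted p = 1.4e-31).

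This T24 difference was the 1 difference between the lines beyond 1.5-fold among the 9 genes, where 26.0% of all genes passed both limits. By T48 the Prps2 levels came close, at 4528, 4640 and 4383 in WT and 4237, 4206 and 4182 in iEZR_CA, still without overlap (-0.09 ± 0.03, adjusted p = 0.0048), a difference that no longer passed without the low-count filter (-0.06).

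Prps1, at chrX:140456613-140476140, was higher in iEZR_CA in ESC, with 4479, 4556 and 4446 normalized counts against 3734, 3770 and 3797 in WT (0.25 ± 0.03, adjusted p = 6.7e-11). It was lower at T24, with 2665, 2674 and 2761 against 3553, 3637 and 3402 (-0.39 ± 0.03, adjusted p = 9.6e-18). At T48 the lines overlapped, at 2978, 2991 and 3088 in iEZR_CA and 3191, 3092 and 3026 in WT, with a 95% interval of the log2 difference of -0.10 to 0.03. The near copy Prps1l3 on chromosome 12 was also read, at 1910 normalized counts on average, so how reads divided between both genes is uncertain.

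Gart, Pfas and Adsl were the de novo genes lower in iEZR_CA at all 3 stages. Gart, which encodes a protein with 3 de novo activities, lies at chr16:91621186-91646952. Its counts were 8261, 8547 and 8126 in WT ESC and 7871, 7771 and 7861 in iEZR_CA ESC, a log2 difference of -0.09 ± 0.03 (adjusted p = 0.0012). At T24 the difference widened, with 11173, 11347 and 11099 in WT and 8098, 7994 and 8152 in iEZR_CA (-0.47 ± 0.02, adjusted p = 2.6e-26).

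At T48 Gart stood at 14299, 14284 and 13782 in WT and 10327, 10292 and 10208 in iEZR_CA (-0.45 ± 0.02, adjusted p = 1.2e-25). The highest iEZR_CA library at T48 thus stayed below the lowest WT library at T24. An antisense gene, Gm15964, shares 1014 exon bases with Gart and averaged 17.9 normalized counts.

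Pfas, the amidotransferase that acts on formylglycinamide ribonucleotide, lies at chr11:68985697-69008460. It had 5985, 6255 and 5851 normalized counts in WT ESC and 4793, 4908 and 4774 in iEZR_CA ESC (-0.33 ± 0.03, adjusted p = 4.0e-15). The groups stayed apart at T24, at 6753, 6527 and 6836 against 4704, 4802 and 4449 (-0.53 ± 0.03, adjusted p = 1.6e-24). They were apart at T48 too, at 7465, 7679 and 7492 against 6294, 6084 and 5818 (-0.31 ± 0.03, adjusted p = 2.0e-14).

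Adsl, the lyase that acts in de novo synthesis and again in the making of AMP, lies at chr15:80948490-80970946. Its counts were 3166, 3325 and 3299 in WT ESC and 2804, 2797 and 2962 in iEZR_CA ESC (-0.20 ± 0.03, adjusted p = 8.8e-08). At T24 it had 3560, 3526 and 3428 against 2875, 3022 and 3063 (-0.23 ± 0.03, adjusted p = 2.5e-09). At T48 WT libraries reached 4917, 4906 and 4687 while iEZR_CA libraries held 3297, 3289 and 3275 (-0.55 ± 0.03, adjusted p = 2.9e-25).

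Atic, which carries out the last steps to IMP and lies at chr1:71557150-71579631, was close between the lines in ESC. The WT libraries had 5733, 5821 and 5635 normalized counts and the iEZR_CA libraries 5575, 5478 and 5589, a difference of -0.05 with a 95% interval of -0.11 to -0.00 (adjusted p = 0.086). It passed without WT ESC replicate 3 (-0.07). At T24 it was lower in iEZR_CA, at 5357, 5411 and 5269 against 6338, 6347 and 6130 (-0.23 ± 0.03, adjusted p = 3.0e-11). It was also lower at T48, at 6367, 6579 and 6458 against 7744, 7592 and 7262 (-0.21 ± 0.03, adjusted p = 2.2e-10).

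Ppat and Paics were the de novo genes called higher in iEZR_CA in ESC. Ppat, the amidotransferase of the first committed step (chr5:76913249-76951578), and Paics, which adds carbon dioxide and aspartate to the growing ring (chr5:76951307-76967509), share 272 exon bases at their opposed starts. Whether the strand was used in counting is not stated, so reads there could have been lost or shared. Ppat had 6129, 6053 and 5723 normalized counts in WT ESC and 6579, 6338 and 6457 in iEZR_CA ESC (0.11 ± 0.03, adjusted p = 0.00059).

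At T24 Ppat was lower in iEZR_CA by a small margin, at 5854, 5670 and 5608 against 5962, 6188 and 5973 (-0.08 ± 0.03, adjusted p = 0.0082). At T48 it did not pass, with 5131, 5172 and 5143 against 5018, 5069 and 5044 and a 95% interval of -0.02 to 0.09. The T24 difference of Ppat no longer passed without WT T24 replicate 2 (-0.06) or iEZR_CA T24 replicate 3 (-0.07), and without the low-count filter neither the ESC (0.09) nor the T24 difference (-0.07) passed.

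Paics, the most abundant member, had 14146, 14640 and 14248 normalized counts in WT ESC and 15245, 15457 and 15135 in iEZR_CA ESC (0.08 ± 0.03, adjusted p = 0.0053). At T24 it had 13231, 13363 and 12882 against 13604, 13808 and 13809 (0.06 ± 0.03, adjusted p = 0.034). This last call was lost without WT T24 replicate 3 (0.05), iEZR_CA T24 replicate 2 (0.06) or iEZR_CA T24 replicate 3 (0.06), and by DESeq2, and without the low-count filter neither the ESC (0.07) nor the T24 difference (0.07) passed. At T48 Paics was lower in iEZR_CA, at 10764, 10914 and 10808 against 12882, 12009 and 11605 (-0.16 ± 0.03, adjusted p = 2.8e-07).

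Summed over the 6 de novo genes, normalized counts were 42881 to 44642 in WT ESC and 42748 to 42866 in iEZR_CA ESC, a ratio of the means of 0.981. At T24 the sums were 46348 to 47297 in WT and 40350 to 40706 in iEZR_CA (ratio 0.864). At T48 they were 49871 to 52325 in WT and 41710 to 42330 in iEZR_CA (ratio 0.821). The sums of the lines did not overlap at any stage, though in ESC the lowest WT sum was 42881 and the highest iEZR_CA sum 42866. No share over all genes was counted for such sums. An exact two-sided permutation of 3 libraries against 3 cannot give a p below 0.1, the value at each stage. It therefore decides nothing here, and the sums are a description. The sum rose with exit in WT means, from 43647 to 51245, while the iEZR_CA means lay at 42798, 40516 and 42074.

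Relative to total reads, exit moved most of these genes. In WT, 8 of the 9 passed at T24 against ESC, 5 higher and 3 lower, where 65.4% of all genes passed (31.8% higher and 33.6% lower). At T48 against ESC all 9 passed, 6 higher and 3 lower, where 74.5% of all genes passed (37.1% higher and 37.4% lower). Prps2 rose most, by 1.14 ± 0.03 log2 units at T24 (2.21-fold, adjusted p = 3.3e-43) and 1.06 ± 0.03 at T48 (2.08-fold, adjusted p = 1.9e-41). Gart rose by 0.42 ± 0.02 and 0.75 ± 0.02, and Adsl by 0.09 ± 0.03 and 0.55 ± 0.03, its T24 rise not passing without WT ESC replicate 1 (0.07) or WT T24 replicate 1 (0.07). Atic rose by 0.12 ± 0.03 and 0.38 ± 0.03, and Pfas by 0.14 ± 0.03 and 0.31 ± 0.03. Under spike-in scaling 2 of the 8 T24 changes passed, those of Prps2 (1.28) and Gart (0.55), where 8632 of all 18469 genes passed. Pfas (0.28), Atic (0.25) and Adsl (0.23) no longer passed, nor did Paics (-0.0019), and Prps1 (0.030) and Aprt turned sign.

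Aprt rose in WT only by T48 (0.35 ± 0.03, adjusted p = 7.3e-15); its change of -0.08 at T24 passed narrowly (adjusted p = 0.040), was lost under all 6 other settings tried and without any 1 of 5 libraries (WT ESC replicate 3, each WT T24 replicate and WT T48 replicate 2, with values of -0.09 to -0.05), and was 0.06 under spike-in scaling. Between T24 and T48 all 9 genes passed in WT, 5 higher and 4 lower, where 65.7% of all genes passed (32.8% higher and 32.9% lower).

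Prps1, Ppat and Paics did not rise in WT. At T48 against ESC, Prps1 fell by 0.29 ± 0.03, Ppat fell by 0.26 ± 0.03 and Paics fell by 0.25 ± 0.03 relative to total reads. Under spike-in scaling none of the 3 passed, where 11960 of all 18469 genes did, with Prps1 at -0.03, Ppat at 0.00061 and Paics at 0.0070. That scaling moved the median of all genes in WT from -0.01 to 0.13 at T24 and from 0.01 to 0.27 at T48, and in iEZR_CA from -0.01 to 0.14 and from 0.01 to 0.26, so falls here are relative to the other genes. The rises of Aprt, Prps2, Gart, Pfas, Adsl and Atic at T48 in WT passed under both scalings.

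**Figure D5:**
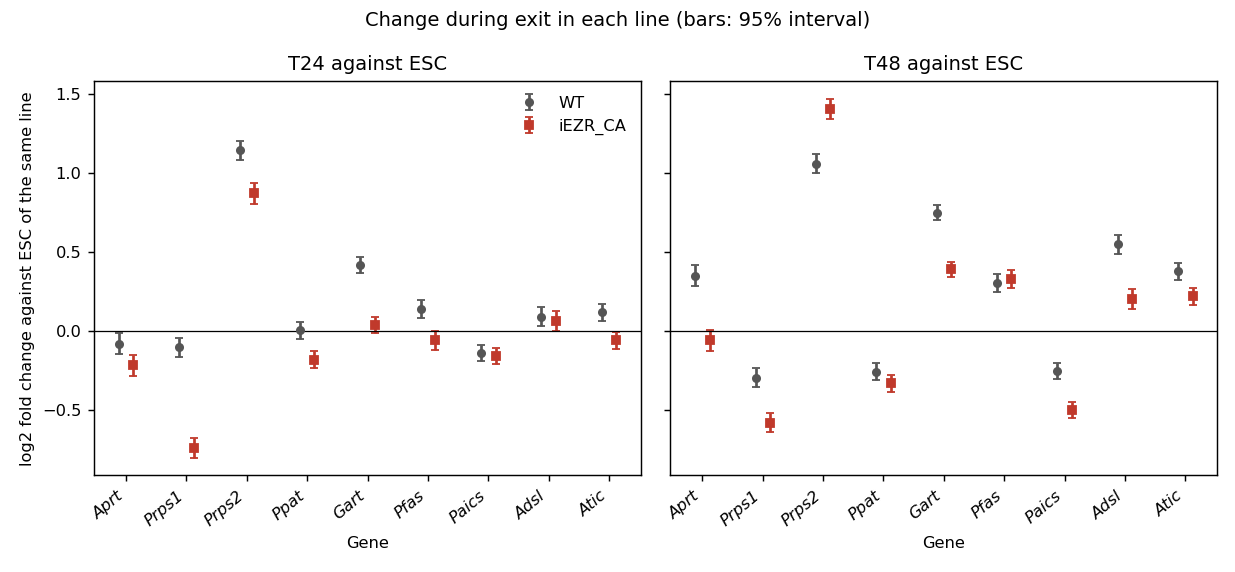
Log2 fold change of the 9 genes at T24 (left) and T48 (right) against ESC of the same line, in WT (circles) and iEZR_CA (squares), with 95% intervals. At T24 Prps1 is at -0.10 in WT and -0.74 in iEZR_CA, and Gart at 0.42 and 0.04.

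In iEZR_CA, Prps2 was called higher at T24. Against ESC 5 of the 9 passed, 1 higher and 4 lower, where 56.0% of all genes passed (27.1% higher and 28.9% lower). Prps2 rose by 0.87 ± 0.03 (1.83-fold), while Prps1 fell by 0.74 ± 0.03 (adjusted p = 5.1e-32), Aprt fell by 0.21 ± 0.03, Ppat fell by 0.18 ± 0.03 and Paics fell by 0.16 ± 0.03. Under spike-in scaling Prps2 and Prps1 still passed and the other 3 did not, where 6593 of all 18469 genes passed. Gart (0.04), Pfas (-0.06), Adsl (0.07) and Atic (-0.06) did not pass. With only the compared groups in the fit 3 genes were called higher, Gart (0.06) and Adsl (0.08) beside Prps2, and with at least 10 counts in every library 2 were, Adsl (0.07) beside Prps2. Adsl also passed without WT T48 replicate 2 (0.08), iEZR_CA ESC replicate 3 (0.09) or iEZR_CA T24 replicate 1 (0.09), and Pfas without iEZR_CA T24 replicate 2 (-0.08).

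By T48 the rise had come for most. Of the 9, 8 passed against ESC, 5 higher and 3 lower, where 70.1% of all genes passed (35.2% higher and 35.0% lower). Prps2 stood at 1.40 ± 0.03 (2.65-fold), Gart at 0.39 ± 0.03, Pfas at 0.33 ± 0.03, Atic at 0.22 ± 0.03 and Adsl at 0.20 ± 0.03. Prps1 fell by 0.58 ± 0.03, Paics fell by 0.50 ± 0.03 and Ppat fell by 0.33 ± 0.03. Of these falls that of Prps1 alone passed under spike-in scaling, where 10845 of all 18469 genes passed. Aprt did not pass (-0.06, 95% interval -0.12 to 0.01), but did without WT ESC replicate 3 (-0.07) or iEZR_CA T48 replicate 2 (-0.09). Between T24 and T48 all 9 passed, 7 higher and 2 lower, where 59.6% of all genes passed (29.6% higher and 30.0% lower).

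The change during exit differed between the lines for most of the 9. By the interaction term of line and time, 7 passed at T24, all 7 with a smaller or more negative change in iEZR_CA, where 38.3% of all genes passed, 16.9% in this direction and 21.5% in the other. Prps1 had the largest at -0.64 ± 0.04 (adjusted p = 2.7e-20) and Gart followed at -0.38 ± 0.04 (adjusted p = 2.8e-14). Paics (-0.02, 95% interval -0.09 to 0.05) and Adsl (-0.03, -0.11 to 0.06) did not pass. No gene of the 9 was called in the other direction by edgeR, with or without adjustment, or by DESeq2.

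At T48 the interaction passed for 7, 1 higher and 6 lower, where 45.8% of all genes passed (25.7% higher and 20.0% lower). Aprt stood at -0.41 ± 0.05 (adjusted p = 3.4e-11), Gart at -0.36 ± 0.04 (adjusted p = 9.5e-14) and Adsl at -0.35 ± 0.04 (adjusted p = 6.3e-10). Prps2 went the other way, at 0.35 ± 0.04 (adjusted p = 9.4e-10). Ppat (-0.07) and Pfas (0.02) did not pass. Under spike-in scaling Prps1 at T24 was the 1 interaction of the 9 that passed at either time, with standard errors near 0.18 at T48. Over all 18469 genes 2416 interactions passed at T24 and 3881 at T48 under that scaling. Levels of the naive markers given above differed between the lines at the same times, and their part in these interactions was not tested.

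Hprt moved with exit in WT. Its level rose by 0.25 ± 0.04 at T24 (adjusted p = 3.2e-07) and by 0.32 ± 0.04 at T48 (adjusted p = 9.0e-10) against ESC. In iEZR_CA its reads summed to 22, 49 and 38 over the 3 libraries of ESC, T24 and T48, so its changes there rest on few reads and are not described further.

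Further genes of nucleotide metabolism were counted between the lines by list, and the shares of all genes called at each stage are those given above for the line comparison. The genes that turn IMP into AMP and GMP were in part higher in iEZR_CA. Of the 5 tested, 2 were higher and 2 lower in ESC, 3 and 2 at T24, and 3 and 1 at T48, with median log2 differences of -0.07, 0.15 and 0.20. Impdh1, an enzyme of the first step toward GMP, averaged 1239 ± 29.5 normalized counts in WT ESC and 2357 ± 30.9 in iEZR_CA ESC (SD, n = 3; log2 difference 0.92 ± 0.03, adjusted p = 4.5e-34). It was higher by 0.74 ± 0.03 at T24 and 0.73 ± 0.03 at T48. Adssl1, an adenylosuccinate synthetase best known from muscle, was at 5.59 ± 1.35 in WT T24 and 94.3 ± 4.57 in iEZR_CA T24 (4.04 ± 0.37), with 3.19 ± 0.26 in ESC and 2.26 ± 0.26 at T48. Adssl1 averaged 50.7 over all libraries, with group means of 5.59 to 14.5 in WT and 69.1 to 109 in iEZR_CA. It thus met the limit of 50 for naming only through iEZR_CA, and its difference is given as a description.

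Genes of nucleoside salvage and breakdown held more lower than higher calls. Of 13 tested among 15 listed, 1 was higher and 6 lower in ESC, 3 and 7 at T24, and 3 and 7 at T48, with medians of -0.22, -0.11 and -0.40. Adk, adenosine kinase, averaged 1363 ± 52.9 in WT T24 and 579 ± 28.9 in iEZR_CA T24 (-1.24 ± 0.05, adjusted p = 2.8e-34). Its difference was -0.22 ± 0.05 in ESC and -0.55 ± 0.04 at T48. Pnp, purine nucleoside phosphorylase, which releases hypoxanthine and guanine, was at 141 ± 16.8 in WT ESC and 67.9 ± 2.66 in iEZR_CA ESC (-1.06 ± 0.13), and at -0.58 ± 0.08 and -0.40 ± 0.10 later. Nt5e, which makes adenosine outside the cell, was lower at T24 (-0.76 ± 0.18) and T48 (-0.64 ± 0.14).

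Transporters of bases and nucleosides held some of the largest differences among these lists. Of 8 tested among 9 listed, 4 were higher and 2 lower in ESC, 3 and 2 at T24, and 5 and 2 at T48, with medians of 0.12, 0.15 and 0.52. Slc43a3, a purine base transporter, averaged 67.6 ± 18.8 in WT ESC and 505 ± 27.9 in iEZR_CA ESC (2.94 ± 0.12, adjusted p = 1.7e-33). Its difference was 2.34 ± 0.14 at T24 and 0.35 ± 0.10 at T48. Slc29a3, a nucleoside transporter of internal membranes, was higher at all 3 stages, by 1.76 ± 0.04, 2.24 ± 0.05 and 2.14 ± 0.06. Slc28a1, a concentrative nucleoside transporter, was higher at T48 by 0.78 ± 0.05.

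Genes that supply one-carbon groups to the ring diverged at T48. All 11 passed there, 4 higher and 7 lower, after 2 higher and 5 lower in ESC and 1 and 8 at T24, and the medians were -0.04, -0.13 and -0.77. Aldh1l2, a mitochondrial formyl-folate dehydrogenase, averaged 204 ± 6.23 in WT T48 and 23.3 ± 5.19 in iEZR_CA T48 (-3.17 ± 0.19, adjusted p = 3.0e-28), and it did not pass in ESC (0.17) or at T24 (0.33). Mthfd2, a mitochondrial enzyme of the folate cycle, was at 5396 ± 303 and 2279 ± 149 at T48 (-1.23 ± 0.05). Aldh1l1, the cytosolic counterpart of Aldh1l2, was higher in iEZR_CA, by 0.23 ± 0.05, 0.69 ± 0.06 and 1.12 ± 0.10.

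Of 10 tested genes of the pentose phosphate route and PRPP supply, 7 were higher and 1 lower in ESC, 7 and 3 at T24, and 4 and 5 at T48, with medians of 0.23, 0.23 and -0.03. Rpe, an epimerase of the pentose route, was higher by 0.62 ± 0.04 in ESC and 0.21 ± 0.04 at T24 and lower at T48 (-0.15 ± 0.04). Of 8 pyrimidine genes, 1 was higher and 5 lower in ESC (3 lower with RLE size factors), 1 and 7 at T24, and 6 were lower at T48, with medians of -0.13, -0.16 and -0.14. Upp1, uridine phosphorylase, was lower at all stages (-0.96 ± 0.03, -1.25 ± 0.03 and -0.54 ± 0.03). Umps, which completes UMP, was higher in ESC by 0.80 ± 0.03 and at T24 by 0.35 ± 0.03 and lower at T48 (-0.12 ± 0.03).

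Of 6 listed regulators of nucleotide synthesis, 5 were lower in ESC, 1 was higher and 5 lower at T24, and 1 and 4 at T48, with medians of -0.29, -0.27 and -0.64. Myc, a transcription factor known to bind E-boxes of nucleotide synthesis genes, averaged 2204 ± 15.6 in WT T24 and 695 ± 21.0 in iEZR_CA T24 (-1.67 ± 0.06, adjusted p = 3.0e-28). It was also lower in ESC (-1.14 ± 0.14) and at T48 (-0.69 ± 0.06). Mycn was lower at the 3 stages, by -0.33 ± 0.03, -1.27 ± 0.03 and -0.59 ± 0.03 in log2 difference. Mycl was lower in ESC (-0.19 ± 0.06) and at T48 (-1.09 ± 0.06) and higher at T24 (0.20 ± 0.06).

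Under spike-in scaling the counts of these lists shrank or stayed the same, and calls over all 18469 genes fell too. All genes called between the lines were 5506, 7129 and 7229 in ESC, T24 and T48, against 10058, 11253 and 11282 relative to total reads. Their split by direction under this scaling was not counted. In ESC, T24 and T48, 2, 3 and 6 one-carbon genes were called lower (5, 8 and 7 relative to total reads), 2, 2 and 4 regulators (5, 5 and 4), 1, 2 and 1 pyrimidine genes (5, 7 and 6) and 4, 6 and 5 salvage and breakdown genes (6, 7 and 7). Called higher were 5, 5 and 3 pentose and PRPP genes (7, 7 and 4), 3, 3 and 5 transporters (4, 3 and 5) and 2, 2 and 2 genes from IMP to AMP and GMP (2, 3 and 3). Of the differences given with a value above, those of Mycl, Aldh1l1, Mycn and Adk in ESC, of Rpe and Mycl at T24, and of Umps, Rpe and Pnp at T48 no longer passed.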

How the data were processed

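NEBNext libraries of polyadenylated RNA were sequenced in pairs by the authors, who trimmed the reads with Trim Galore 0.6.5, aligned them to GRCm38 with GSNAP and quantified genes with HTSeq and the Ensembl annotation. The authors deposited raw read counts. Reads outside genes were 21.3% to 24.3% and spike-in RNA 0.575% to 0.884% of a library, and both were left out of library sizes. By default HTSeq drops multiply aligned reads. Its strand setting is not given in the sources used here.

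Groups came from the sample labels. Symbols and coordinates came from GENCODE M21 on GRCm38, and 53620 of the 53801 gene identifiers had a symbol. Tests used edgeR 4.0.16 (R 4.3.3) with filterByExpr, TMM factors of 0.975 to 1.03, 1 term for each of the 6 groups over all 18 libraries and the robust quasi-likelihood test, with Benjamini-Hochberg adjustment over 18469 genes at 0.05. The biological coefficient of variation was 2.98%, so small differences passed. Values after a log2 difference are Wald standard errors from the fitted variance, held at or above the Poisson error. Normalized counts used DESeq2 1.42.0 size factors, and the DESeq2 Wald test, RLE size factors, spike-in scaling, other filters and omission of each library were tried. Replicates differed by more than sampling noise in all 18 pairs within groups (chi-square per degree of freedom 1.55 to 3.33). Statistics were tested on simulated data.

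The members and gene lists were chosen with earlier results of these data known. Beside the 10 genes, up to 3 genes per list were named, by the largest line difference past a fold of 1.5 at a mean of at least 50, and so were all tested genes within 500 kb of Hprt and the 5 genes most like Hprt and the de novo mean.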

Additional observations from a re-analysis of the deposited data

Results flagged for a closer look

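The change during exit differed between iEZR_CA and WT for the following genes, by the interaction term of edgeR (log2 change in iEZR_CA minus log2 change in WT). At T24 the differences were -0.14 for Aprt, -0.64 for Prps1, -0.27 for Prps2, -0.19 for Ppat, -0.38 for Gart, -0.20 for Pfas and -0.18 for Atic. At T48 they were -0.41 for Aprt, -0.28 for Prps1, 0.35 for Prps2, -0.36 for Gart, -0.25 for Paics, -0.35 for Adsl and -0.16 for Atic. The Aprt difference at T24 was the weakest, and it no longer passed without WT ESC replicate 1 (-0.10), WT ESC replicate 2 (-0.13), iEZR_CA ESC replicate 2 (-0.11) or iEZR_CA T24 replicate 2 (-0.10), nor without the low-count filter (-0.11). The Atic difference at T48 no longer passed without that filter (-0.11).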

How the results depend on the processing

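No paired analysis was possible because the labels name wells and carry no replicate number, and numbers given here in deposit order pair no samples. Scaling to spike-in RNA, which stood at 0.575% to 0.884% of a library, changed most. Of the 9 genes it left 1, 4 and 2 called between the lines in ESC, at T24 and at T48. It left 2 in WT at T24 and 5 from T24 to T48, and 2 and 4 in iEZR_CA. It left 1 interaction at T24 and 0 at T48, where 3 had an unadjusted p under 0.05 and DESeq2 without spike-ins called 7. Over all genes it called 5506, 7129 and 7229 between the lines, and 2416 interactions at T24 and 3881 at T48. It called 8632 and 8823 changes in WT at T24 and from T24 to T48, and 6593 and 6931 in iEZR_CA. The median log2 difference of the 9 became 0.0028, -0.16 and -0.11 between the lines. The median change became 0.23 at T24, 0.61 at T48 and 0.29 from T24 to T48 in WT, 0.094, 0.46 and 0.27 in iEZR_CA, and -0.17 for the T24 interaction. Signs turned for Aprt (0.060) and Prps1 (0.030) at T24 in WT, Ppat (0.00061) and Paics (0.0070) at T48, and Prps2 (0.043) and Paics (0.0089) from T24 to T48. The cause was not tested.

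With no low-count filter, medians were -0.14 between the lines at T48, 0.32 and 0.14 in WT at T48 and from T24 to T48, -0.038 in iEZR_CA at T24, and -0.16 and -0.20 for the interactions. With at least 10 counts in every library they were 0.39 and 0.19 in WT and -0.27 for the T48 interaction. The WT T48 median was 0.37 with RLE factors or DESeq2. Relative to chromosome medians, a reference chosen after seeing the data, the T48 line median was -0.23 and Aprt at T24 was -0.11.

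Leaving out 1 library at a time gave medians of -0.20 to -0.15 between the lines at T48. In WT they were 0.069 to 0.11 at T24, 0.32 to 0.37 at T48 and 0.14 to 0.18 from T24 to T48. In iEZR_CA they were -0.083 to -0.043, 0.19 to 0.22 and 0.14 to 0.18. The interactions had -0.20 to -0.16 at T24 and -0.29 to -0.21 at T48. Between 6 and 9 of the 9 genes were called at T24 between the lines, with 6 without iEZR_CA T24 replicate 3.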

Other observations

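Over the 18 libraries and 12791 genes with a mean of at least 50 normalized counts, the log2 levels most like those of Hprt by Pearson r were those of Gm3375 (0.995), Nop9 (0.994), Fank1 (0.992), Tead2 (0.991) and Nufip1 (0.991). All libraries of a group share a line and a stage, so these values are a description. The log2 differences between the lines in ESC were -0.85 for Gm3375, -0.92 for Nop9, -3.45 for Fank1, -1.37 for Tead2 and -1.06 for Nufip1, against -8.28 for Hprt. The genes most like the mean of the 6 de novo genes were Cpsf2 (0.989), Farsb (0.988), Tpi1 (0.981), Ptcd3 (0.981) and Ldha-ps2 (0.980). Their T48 differences were -0.43 for Cpsf2, -0.43 for Farsb, -1.32 for Tpi1, -0.40 for Ptcd3 and -2.17 for Ldha-ps2. Gart and Atic had a correlation of 0.96 across the 18 libraries and Gart and Adsl of 0.93, while Ppat had -0.81 with Gart and 0.83 with Paics.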
